A study of Mus musculus with 4 samples.

Results

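The barcodes described here were those of murine bone and marrow in which Ngp, Camp and Ltf together made up at least 5 of every 1000 RNA UMIs (unique molecular identifiers, 1 per captured transcript), or in which Elane, Mpo and Prtn3 did. They numbered 104 of the 15670 barcodes that passed quality filters, with 47 of 10063 in the young and 57 of 5607 in the old mouse. All 104 entered through Ngp, Camp and Ltf and none through Elane, Mpo and Prtn3, so they are called Ngp/Camp/Ltf barcodes below. They were set against 564 comparison barcodes outside the set, 192 young and 372 old, in which S100a8 and S100a9 made up at least 1% of RNA UMIs.

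CITE-seq, which reads mRNA and an antibody-bound DNA tag from the same cell, was performed on 1 mouse of 6 months and 1 mouse of 24 months. Both were untreated INK-ATTAC mice, which carry a transgene driven by the p16 promoter that lets p16-expressing cells be removed by a drug, and neither received that drug. Femur and tibia cells were depleted of blood lineages with magnetic beads against CD5, B220, CD11b, Gr-1 and Ter-119 among others, and the rest were stained for CD45 and with a TotalSeq antibody to CD24 before live CD45-negative cells were sorted. Granulocytes carry CD45, CD11b and Gr-1, so the barcodes described here came through steps aimed at removing such cells, and their shares describe the sorted suspension and not the marrow. With 1 mouse per age there was no replicate, age and animal cannot be told apart, and no difference between the ages was tested.

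Neutrophils fill their granules in waves as they mature in the marrow. Myeloblasts and promyelocytes make primary granules with elastase (Elane) and myeloperoxidase (Mpo), myelocytes and metamyelocytes make specific granules with neutrophilic granule protein (Ngp), cathelicidin (Camp) and lactoferrin (Ltf), and later stages make gelatinase granules and then switch on the receptors and cytokines of the circulating neutrophil. C/EBPε, encoded by Cebpe, is the transcription factor best known for driving the specific granule wave. Since both sets of barcodes were chosen by their RNA, every comparison of RNA between them below is a description without a test.

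The sequences upstream of the gate genes are shown because the rule selects on the summed UMIs of these genes. Ngp (ENSMUSG00000032484), Camp (ENSMUSG00000038357) and Ltf (ENSMUSG00000032496) all lie on chromosome 9 of GRCm38, the assembly also called mm10, within 1195390 bases: Camp at 109847377-109849456, Ngp at 110419808-110423012 and Ltf at 111019292-111042766. The 250 bases before each RefSeq start site, at chr9:110419558-110419807 (plus strand), chr9:109849457-109849706 (minus strand) and chr9:111019042-111019291 (plus strand), read as follows, 5′ to 3′ on the strand of the gene, with capitals marking TTNNGNAA, a C/EBP-type motif that was searched on both strands.
Ngp: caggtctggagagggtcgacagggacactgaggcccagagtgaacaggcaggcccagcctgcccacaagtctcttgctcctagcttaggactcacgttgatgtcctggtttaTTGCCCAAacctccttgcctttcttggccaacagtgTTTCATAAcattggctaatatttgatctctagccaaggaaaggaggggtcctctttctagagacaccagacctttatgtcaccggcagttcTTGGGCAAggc
Camp: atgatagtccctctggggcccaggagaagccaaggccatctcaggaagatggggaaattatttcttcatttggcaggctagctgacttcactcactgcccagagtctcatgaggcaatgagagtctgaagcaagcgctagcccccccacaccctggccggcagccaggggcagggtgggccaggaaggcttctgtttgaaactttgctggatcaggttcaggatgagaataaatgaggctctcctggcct
Ltf: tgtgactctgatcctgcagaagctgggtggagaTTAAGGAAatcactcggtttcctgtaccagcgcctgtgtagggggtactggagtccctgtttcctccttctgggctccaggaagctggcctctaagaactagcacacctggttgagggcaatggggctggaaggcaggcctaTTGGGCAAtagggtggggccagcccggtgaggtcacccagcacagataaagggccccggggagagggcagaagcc
The motif occurred 3 times in the Ngp window, 2 times in the Ltf window and 0 times in the Camp window, and 36.8% of the 32851 RefSeq promoter windows of this length held at least 1 match. GAGGAA, a PU.1-type motif, occurred 1 time in the Ltf window and 0 times in the others (23.3% of all windows held it), and TATAAA occurred in none of the 3 windows (12.4% of all windows). A match describes letters only.

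In all, 82675434 RNA UMIs were counted over 11371 barcodes from the young and 68580402 over 6729 barcodes from the old animal, with medians of 6385 and 9711 UMIs in the barcodes kept. Scrublet predicted 269 young (2.67%) and 57 old (1.02%) doublets, which were kept, and 2 of them, both old, were Ngp/Camp/Ltf barcodes. The libraries shared 25 barcode sequences, and 1 Ngp/Camp/Ltf barcode had its sequence in both, though it passed the rule in 1 of them. None of the 1308 young and 1122 old barcodes removed by the filters reached the Ngp, Camp and Ltf or the Elane, Mpo and Prtn3 threshold. All intervals are exact, at 95%, and allow for counting error alone.

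The Ngp/Camp/Ltf barcodes made up 0.467% (0.343 to 0.621) of the kept young barcodes and 1.02% (0.771 to 1.32) of the old. Comparison barcodes were 1.91% of the young and 6.63% of the old. Of both kinds together, Ngp/Camp/Ltf barcodes were 19.7% (14.8 to 25.3) of 239 in the young mouse and 13.3% (10.2 to 16.9) of 429 in the old. The Ngp/Camp/Ltf barcodes were deep, with medians of 8029 UMIs (range 1249 to 23547) for young and 10581 (583 to 32549) for old barcodes, against 2580.5 and 3305 in the comparison barcodes. S100a8 and S100a9, the subunits of calprotectin, made up a median of 24.2% and 30.8% of their RNA UMIs, against 9.40% and 7.85% in the comparison barcodes.

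Of the markers given with the label of immature granulocytes, Ngp, Camp and Ltf chose the barcodes, so their presence was fixed by the rule. The primary granule markers were not found. Elane and Mpo, both among the 5 markers given for the cell type, had 0 UMIs in the 104 barcodes, as had cathepsin G (Ctsg), another primary granule protease. Over all kept barcodes Elane had 9 and 6 UMIs and Mpo 20 and 7 in the young and old mouse. Prtn3, which encodes proteinase 3, had 513 and 562 UMIs over all kept barcodes but 1 and 2 in the Ngp/Camp/Ltf barcodes. Elane, Mpo and Prtn3 together reached at most 1.04 and 1.52 per 1000 UMIs in any kept barcode, and the 0 barcodes above 5 per 1000 allow a share of up to 0.0367% and 0.0658% (upper bounds of the exact intervals). The 8 listed progenitor and stem cell genes summed to 158 and 124 CPM (counts per 1000000 RNA UMIs of the set), against 196 and 146 CPM in the comparison barcodes, and the intervals of both log2 ratios (-0.76 to 0.13 and -0.62 to 0.14) included 0. Without the barcodes that held at least 5 mesenchymal UMIs per 1000, as described below, they were at 175 against 50.9 CPM in the young (29 against 16 UMIs, log2 ratio 1.78, 0.85 to 2.76) and at 26.8 against 32.7 CPM in the old mouse. Of those 29 young UMIs, 23 lay in the 7 barcodes of 20 to 60 gate UMIs per 1000 (390 CPM), a group described below. The young barcodes of lower and higher gate level were at 52.0 and 58.8 CPM.

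Ngp chose these barcodes and was found in all of them. Its level was 2.69 per 1000 UMIs in the lowest, 19.7 in the median and 50.1 in the highest young barcode, and 1.98, 11.7 and 65.9 in the old. Camp, an antimicrobial peptide precursor, had UMIs in 47 of 47 young barcodes (lowest 0.399, median 22.2 and highest 68.6 per 1000) and in 50 of 57 old barcodes (0, 3.61 and 60.9). Ltf, an iron-binding protein, had UMIs in 35 of 47 (median 6.72 and highest 14.3 per 1000) and in 38 of 57 (1.44 and 17.4). The levels therefore ran from barcodes just past the threshold to barcodes in which these 3 genes took 131 (young) and 136 (old) of every 1000 UMIs, with medians of 46.1 and 16.0. Just inside the threshold lay young barcodes at 5.19, 5.98 and 6.02 per 1000 and old barcodes at 5.15, 5.58 and 5.72, and just outside lay 4.90, 4.83 and 4.63 in the young and 4.85, 4.79 and 4.74 in the old mouse.

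The Ngp/Camp/Ltf barcodes fell into kinds that were separated by mesenchymal RNA. The 7 mesenchymal marker genes (Cxcl12, Lepr, Col1a1, Col1a2, Col3a1, Dcn and Sparc) made up fewer than 5 of every 1000 UMIs in 28 of 47 young (59.6%) and 32 of 57 old barcodes (56.1%), where they reached at most 4.25 and 4.20 per 1000. A further 19 young and 12 old barcodes of at least 2000 UMIs carried more, with medians of 20.5 and 16.9 per 1000, and so did 13 old barcodes of fewer than 2000 UMIs. This split and the further ones by level were chosen after the data were seen. In the deep mesenchymal-positive barcodes Cxcl12, the chemokine of marrow reticular cells, was at 15721 and 13373 CPM and the leptin receptor gene Lepr at 829 and 985 CPM, against 8167 and 8171 CPM of Cxcl12 and 494 and 553 CPM of Lepr in the 8574 young and 4399 old stromal barcodes (at least 5 mesenchymal UMIs per 1000 and under 1% S100a8 and S100a9). Col1a1, the bone matrix collagen gene, was at 136 and 234 CPM there, against 7346 and 13600 CPM in the stromal barcodes. The mesenchymal RNA in these barcodes was thus rich in Cxcl12 and Lepr and poor in Col1a1 and Dcn (440 and 422 CPM, against 10710 and 9424).

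The deep mesenchymal-positive barcodes held granulocyte genes as well. Ly6g, the neutrophil antigen bound by Gr-1 antibodies, was at 679 and 471 CPM, against 635 and 921 CPM in the mesenchymal-low barcodes and 0.06 and 0.14 CPM in stroma. Their median depth was 11083 and 21716.5 UMIs, against 3770 and 10779 in the mesenchymal-low barcodes, and 1 of the 31 was a predicted doublet. Whether each held RNA of more than 1 cell was not tested. The 13 shallow old barcodes had a median of 899 UMIs and 4 to 14 UMIs of the 3 gate genes each, no UMI of Ptprc, which encodes CD45, and a median of 3.70% S100a8 and S100a9. Of the stromal barcodes, 133 young (1.55%) and 275 old (6.25%) held at least 1 UMI of Ngp, Camp or Ltf, at median depths of 6365 and 10087 UMIs. Results are therefore also given for the mesenchymal-low barcodes, against the 136 young and 261 old comparison barcodes that were mesenchymal-low as well.

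**Figure D1:**
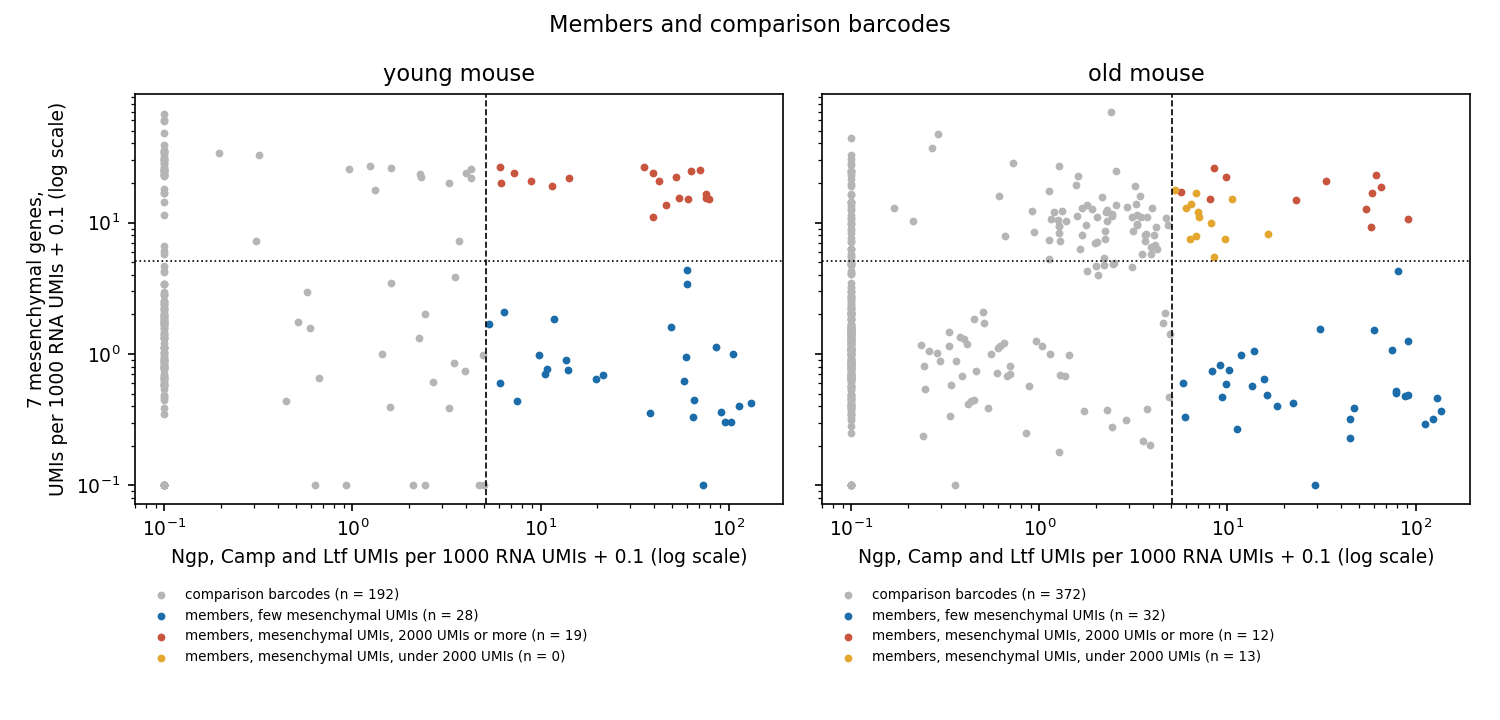
Ngp, Camp and Ltf UMIs per 1000 RNA UMIs (x axis, log scale, 0.1 added) against the UMIs of 7 mesenchymal genes per 1000 (y axis, log scale, 0.1 added), with 1 point per barcode and 1 panel per mouse. The dashed line is the threshold of 5 per 1000 that chose the Ngp/Camp/Ltf barcodes and the dotted line parts mesenchymal-low from mesenchymal-positive barcodes: 28 young and 32 old Ngp/Camp/Ltf barcodes lie below it.

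Specific granule genes that the rule did not use were mostly higher in the Ngp/Camp/Ltf barcodes. A gene was counted as higher or lower where the log2 ratio of CPM (5 CPM added to each) passed 1 in the same direction in both mice. Of 5864 genes with at least 50 UMIs, 1.79% were higher and 7.09% lower by this measure, and the median log2 ratio over all of them was -0.24 for the young and -0.12 for the old mouse. Of the 7 specific granule genes outside the rule, 6 had enough UMIs, and 4 were higher and 0 lower, with median log2 ratios of 3.02 and 2.59. Summed over the 7 genes, the log2 ratio was 1.76 (1.71 to 1.82) in the young and 2.01 (1.97 to 2.05) in the old mouse. Between the mesenchymal-low barcodes, where 3.65% of 3147 genes were higher and 15.2% lower, the same 4 genes were counted.

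Lcn2, which encodes the iron-siderophore binding protein lipocalin 2, was the most abundant of the 4. It reached 0.996 per 1000 UMIs in the lowest, 7.54 in the median and 23.4 in the highest young barcode, and 0, 9.04 and 27.7 in the old, against medians of 0.587 and 0.594 in the comparison barcodes. Nearly every Ngp/Camp/Ltf barcode held it (47 of 47 and 53 of 57), and the ranges of the sets overlapped. Over the sums, Lcn2 was at 9012 against 1081 CPM in the young mouse, a ratio of 8.34 (7.74 to 9.0), and at 12634 against 2126 CPM in the old, a ratio of 5.94 (5.70 to 6.19).

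Chil3, the chitinase-like protein Ym1, was nearly absent outside the set. It had 418 UMIs in 31 young and 692 UMIs in 29 old Ngp/Camp/Ltf barcodes, against 6 and 2 UMIs in the comparison barcodes (1103 against 7.49 CPM and 1072 against 1.32 CPM). Cd177, a neutrophil surface glycoprotein, was at 699 against 83.6 CPM and 817 against 107 CPM, with UMIs in 41 of 47 and 45 of 57 barcodes. Olfm4, which is made by a fraction of neutrophils, was at 607 against 36.2 CPM and 251 against 37.0 CPM, and its UMIs came from 7 young and 4 old barcodes. Haptoglobin (Hp, 3302 against 2763 and 3442 against 1581 CPM) and Pglyrp1, a peptidoglycan-binding protein (1966 against 960 and 2577 against 1319 CPM), did not pass the limit in both mice.

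Genes of the gelatinase granule and of the NADPH oxidase, which makes the respiratory burst, were split. Of the 6 gelatinase granule genes, Mmp8 and Cybb were higher and 0 were lower. Cybb, the membrane subunit of the oxidase, was at 1051 against 69.9 CPM in the young and 880 against 56.7 CPM in the old mouse, with UMIs in 41 of 47 and 42 of 57 barcodes. Mmp8, neutrophil collagenase, was at 1391 against 455 and 1878 against 587 CPM, while Mmp9, gelatinase itself, was at 1338 against 841 and 1422 against 845 CPM and did not pass the limit. Cybb was also the only 1 of the 6 oxidase genes counted, and its partner Cyba was at 1227 against 782 and 1326 against 829 CPM.

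The transcription factor genes of the granulocyte lineage differed by member. Cebpe was at 129 against 8.73 CPM in the young mouse, a ratio of 14.8 (6.67 to 38.8), and at 126 against 7.26 CPM in the old, a ratio of 17.3 (9.17 to 36.0). Its counts were small, with 49 UMIs in 23 young and 81 UMIs in 22 old Ngp/Camp/Ltf barcodes. Cebpb, a factor of emergency granulopoiesis, was lower, at 855 against 3110 CPM and 1297 against 4266 CPM. Klf4 was lower over all barcodes (18.5 against 218 and 12.4 against 164 CPM) but not between the mesenchymal-low barcodes (30.2 against 31.8 and 10.7 against 32.7 CPM). Spi1, which encodes PU.1, was at 190 against 246 and 268 against 347 CPM and was not counted. Of the 8 factors with enough UMIs, 1 was higher and 2 were lower.

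Genes of mature neutrophils were mostly lower. Of the 10 listed, 1 was higher (Wfdc21, 2642 against 569 and 4240 against 1485 CPM) and 7 were lower, with median log2 ratios of -1.89 and -2.18. Il1b, which encodes interleukin 1β, was at 863 against 5054 CPM in the young and 917 against 6104 CPM in the old mouse. It was found in 26 of 47 and 25 of 57 Ngp/Camp/Ltf barcodes, where it reached 9.58 and 8.08 per 1000 UMIs, and in 178 of 192 and 262 of 372 comparison barcodes, where it reached 39.5 and 57.4. The G-CSF receptor gene Csf3r was at 92.4 against 514 and 124 against 785 CPM, and the chemokine gene Ccl6 at 280 against 1380 and 265 against 2119 CPM. The resistin-like gene Retnlg, counted in neither direction, was at 16645 against 13840 and 21538 against 17093 CPM, and because of its abundance the sum over the list differed little, with log2 ratios of -0.16 and -0.19. The sum varied within the set. In the mesenchymal-low barcodes it was 72163 and 66174 CPM at 5 to 20 gate UMIs per 1000, largely Retnlg as given below. At 60 or more it was 24028 and 19430 CPM, and in the mesenchymal-low comparison barcodes 43315 and 41386 CPM.

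Receptor genes through which neutrophils sense growth factors, chemokines and bacterial products were counted in 1 direction. Of 10 such genes 0 were higher and 4 were lower, namely Csf3r, Cxcr2, Cxcr4 and Tlr4. Between the mesenchymal-low barcodes 0 were higher and 5 lower, among them Tlr2 (169 against 398 and 199 against 418 CPM) and not Cxcr2. Cxcr4, the receptor for Cxcl12 that holds neutrophils in the marrow, was at 68.6 against 195 CPM in the young and 43.4 against 423 CPM in the old mouse. Cxcr2, a chemokine receptor of mature neutrophils, was at 158 against 323 and 189 against 405 CPM, and between the mesenchymal-low barcodes it was at 175 against 602 and 271 against 500 CPM.

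**Figure D2:**
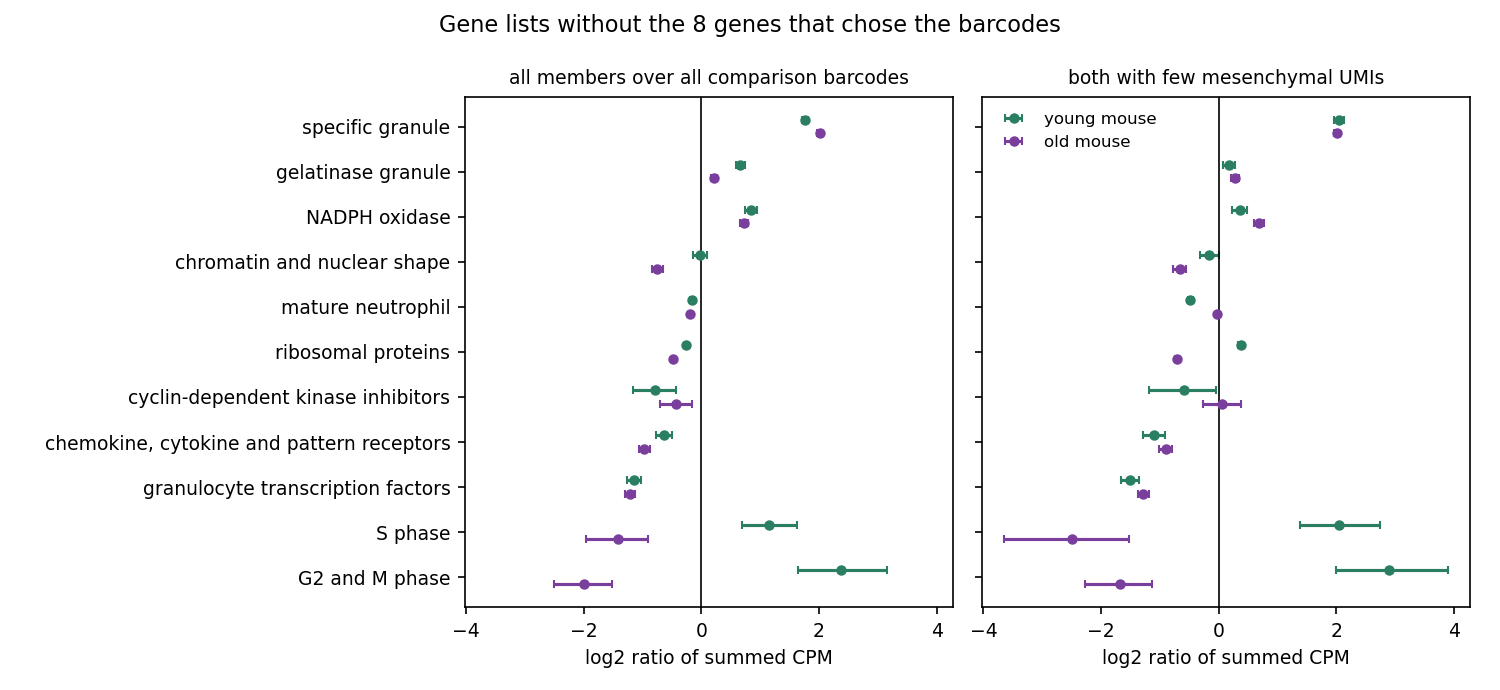
Log2 ratio of summed CPM, Ngp/Camp/Ltf barcodes over comparison barcodes (x axis), for 11 gene lists (y axis), with all barcodes in the left panel and mesenchymal-low barcodes in the right, 1 marker per mouse and bars for the 95% exact interval of counting. On the left the specific granule genes outside the rule lie at 1.76 (young) and 2.01 (old) and the mature neutrophil genes at -0.16 and -0.19.

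Outside the lists, the 10 genes with the highest ratios in both mice included further neutrophil genes. Ldhc, a lactate dehydrogenase subunit, was at 66.0 against 1.25 CPM and 101 against 0 CPM. Serpinb1a, the inhibitor of neutrophil elastase, was at 280 against 9.98 and 301 against 23.1 CPM, although Elane itself had no UMI. Itgb2l, an integrin β2-like gene (195 against 23.7 and 212 against 15.2 CPM), and the interferon-induced transmembrane gene Ifitm6 (1703 against 248 and 2520 against 339 CPM) were also among them. Lta4h, the hydrolase that makes leukotriene B4, was at 135 against 16.2 and 184 against 20.5 CPM, and Ltb4r1, a receptor of that lipid, at 148 against 22.5 and 186 against 31.7 CPM. The other 4 were Zmpste24, the prelamin A protease (119 against 17.5 and 85.2 against 8.58 CPM), Anxa3 (211 against 34.9 and 231 against 35.0 CPM), the ADP-dependent glucokinase gene Adpgk (554 against 101 and 527 against 53.4 CPM) and Mgst2 (145 against 13.7 and 119 against 19.8 CPM).

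The 10 genes with the lowest ratios included inflammatory genes. Wfdc17 was at 7.92 against 610 CPM in the young and 9.30 against 1138 CPM in the old mouse. The chemokine genes Ccl3 (10.6 against 504 and 20.1 against 537 CPM) and Ccl4 (63.4 against 2108 and 74.4 against 2274 CPM) and the stress-response genes Atf3 (26.4 against 664 and 23.2 against 1080 CPM) and Gadd45b (84.5 against 1001 and 94.5 against 1425 CPM) followed. Ptafr, the receptor of platelet-activating factor (21.1 against 260 and 48.0 against 566 CPM), and Pla2g7, which breaks that lipid down (5.28 against 339 and 13.9 against 379 CPM), were both in the group. Ifitm1 (31.7 against 807 and 127 against 1570 CPM) and Fgl2 (7.92 against 168 and 15.5 against 205 CPM) completed it together with Prg4, the lubricin gene, which at 23.8 against 294 and 24.8 against 653 CPM was lower over all barcodes but not between the mesenchymal-low ones (24.2 against 54.1 and 24.2 against 33.6 CPM).

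Lists for other cell types gave few counts. Erythroid genes summed to 116 CPM in the young Ngp/Camp/Ltf barcodes and 11710 CPM in the young comparison barcodes, and to 2326 and 2352 CPM in the old, with 0 of 5 genes counted. Of the 1501 erythroid UMIs in the old Ngp/Camp/Ltf barcodes 1393 were in 1 predicted doublet, and without it and the young barcode described below the sums were 170 CPM in the old and 110 CPM in the young mouse. Between the mesenchymal-low barcodes the erythroid genes were at 103 against 197 CPM in the young and, with the doublet, 3859 against 3023 CPM in the old mouse. Among 3 monocyte and macrophage genes with enough UMIs, Ly6c2 was higher and Csf1r lower. Of 7 mesenchymal genes 0 were higher and 3 (Col1a1, Col3a1 and Dcn) were lower, none of them between the mesenchymal-low barcodes. Of 4 progenitor genes 1 (Cd34) was lower, of 3 cyclin-dependent kinase inhibitor genes 1 (Cdkn1a, at 21.1 against 139 and 34.1 against 104 CPM), and of 5 genes for chromatin and nuclear shape 1 (Lmna). Between the mesenchymal-low barcodes neither Cdkn1a (24.2 against 111 and 32.2 against 59.1 CPM) nor Lmna was counted, no progenitor gene had enough UMIs, and Lmnb1, the lamin B1 gene, was lower. None of 3 B lineage, 1 S phase, 2 G2 and M phase and 89 ribosomal protein genes was counted, and no gene of the primary granule, T and NK, eosinophil and basophil or mast cell, megakaryocyte and endothelial lists had enough UMIs.

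Within the mesenchymal-low Ngp/Camp/Ltf barcodes, some granule genes were higher and some mature neutrophil genes lower where the level of the gate genes was higher. Barcodes were grouped at 5 to 20, 20 to 60 and at least 60 gate UMIs per 1000, which held 11, 7 and 10 young and 14, 7 and 11 old barcodes. These groups are defined by the RNA of the same barcodes, so their differences are a description. Of 731 genes, 5.2% were higher and 8.34% lower in the top than in the bottom group in both mice. Of the 6 specific granule genes 3 were higher and 0 lower, of the 6 gelatinase granule genes 1 (Cybb) was higher and 1 (Slpi) lower, and of the 10 mature neutrophil genes 0 were higher and 5 lower.

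The mix of the gate genes itself shifted. In the bottom group Ngp gave 66.3% (young) and 77.4% (old) of the gate UMIs and Ltf 0.246% and 4.38%, whereas in the top group Ngp gave 43.5% and 48.0% and Ltf 12.3% and 12.7%. Ltf was at 26.0, 7576 and 11882 CPM over the young groups and 497, 4220 and 12918 CPM over the old. Camp was at 3539, 21049 and 42835 CPM and at 2067, 10667 and 39896 CPM. Ngp was already at 7026 and 8781 CPM in the bottom groups and at 42173 and 48819 CPM in the top groups. Barcodes near the threshold thus held Ngp with little Ltf.

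Among genes outside the rule, Chil3 was at 26.0, 1203 and 2662 CPM in the young and 69.9, 318 and 2127 CPM in the old mouse. Lcn2 stood high throughout, at 7859, 9355 and 16925 CPM and at 8680, 14312 and 20596 CPM. Cybb was at 390, 1119 and 1632 CPM and at 264, 820 and 1646 CPM. Cebpe was at 78.1, 67.8 and 250 CPM and at 15.5, 171 and 191 CPM. In the other direction Retnlg was at 57512, 8186 and 17631 CPM in the young and 53415, 34850 and 9990 CPM in the old mouse. Il1b was at 4112, 33.9 and 353 CPM and at 3178, 306 and 129 CPM, and Ccl6 was at 1587, 84.7 and 0 CPM and at 1010, 122 and 6.17 CPM. Zmpste24 was at 0, 50.8 and 206 CPM and at 0, 0 and 228 CPM, so that its UMIs lay in the upper groups of both mice. The middle young group was dominated by 1 barcode of 23547 UMIs among its 59004, which is described below, so its values rest largely on that barcode.

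Over single barcodes the rank correlation (Spearman's rho) with the gate level was 0.845 for Chil3, 0.797 for Lcn2, -0.709 for Retnlg and -0.653 for Il1b in the 28 young, and 0.869, 0.751, -0.891 and -0.634 in the 32 old barcodes. Not all genes of a list ran the same way, since rho was -0.31 and -0.22 for Mmp8 of the gelatinase granule and 0.394 and 0.485 for Wfdc21 of the mature neutrophil list. These points share a library and each level shares its total with the gate genes, and depth moved with the gate level too, with rho of 0.550 and 0.713 for RNA UMIs. The part of depth in these relations was not tested.

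**Figure D3:**
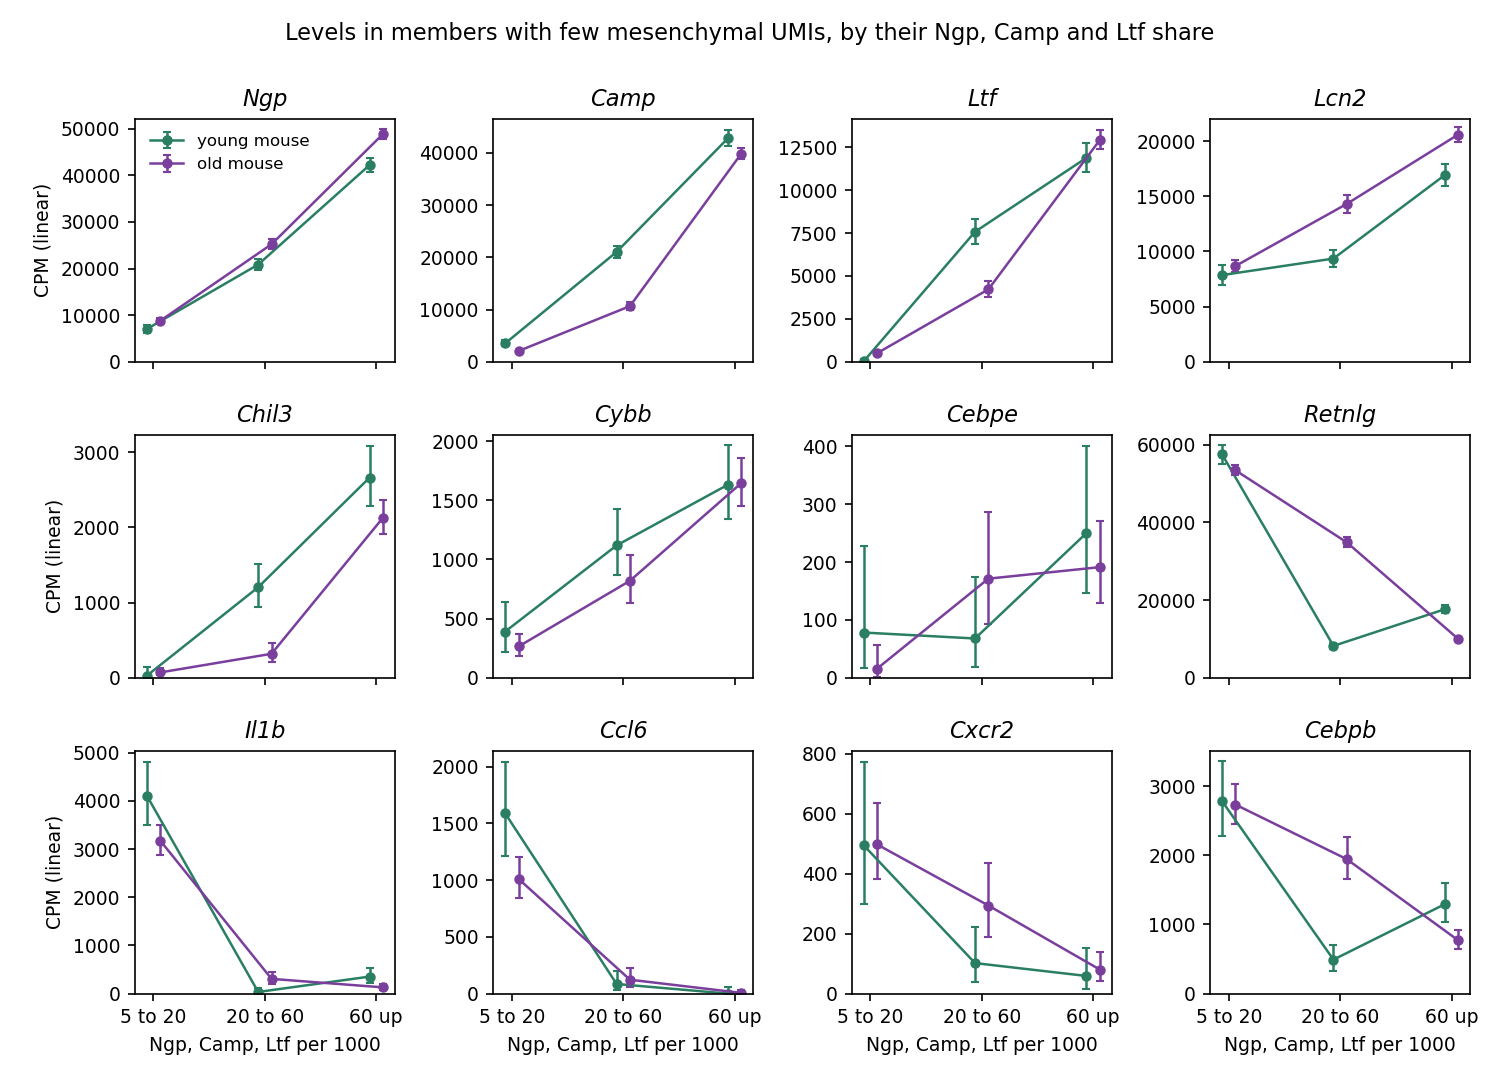
CPM (y axis, linear scale from 0) of 12 genes over the mesenchymal-low barcodes grouped at 5 to 20, 20 to 60 and at least 60 Ngp, Camp and Ltf UMIs per 1000 (x axis), with 1 line per mouse and bars for the 95% exact Poisson interval of the summed UMIs. Chil3 and Cybb were higher in the top than in the bottom group in both mice, whereas Retnlg and Il1b were lower.

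Targets of the depletion and of the CD45 sort were present as RNA. After each barcode was thinned to 2000 UMIs, which left 42 young and 44 old Ngp/Camp/Ltf barcodes and dropped 5 and 13 shallower ones, Ptprc was found in 21 of 42 (34.2 to 65.8%) and 30 of 44 (52.4 to 81.4%). Before thinning it was found in 45 of 47 and 44 of 57. Stromal barcodes, which should lack it, held it in 0.250% and 0.0732% after thinning. Itgam, which encodes CD11b, was found in 52.4% and 63.6% and Ly6g in 66.7% and 65.9% of the thinned barcodes, with at most 0.0732% for either gene in stroma. Over sums, Ly6g (660 against 79.9 and 725 against 163 CPM) and Ly6c2 (436 against 116 and 624 against 133 CPM) were higher than in the comparison barcodes, and Ptprc, at 409 against 757 and 615 against 1133 CPM, was not counted. Of 7 surface genes with enough UMIs, 2 were higher and 2, Ly6a and Ly6c1, lower. The latter were found in 40.3% and 34.1% of thinned young and 35.1% and 27.3% of thinned old stromal barcodes, and between the mesenchymal-low barcodes, where 5 genes had enough UMIs, 2 were higher and 0 lower.

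**Figure D4:**
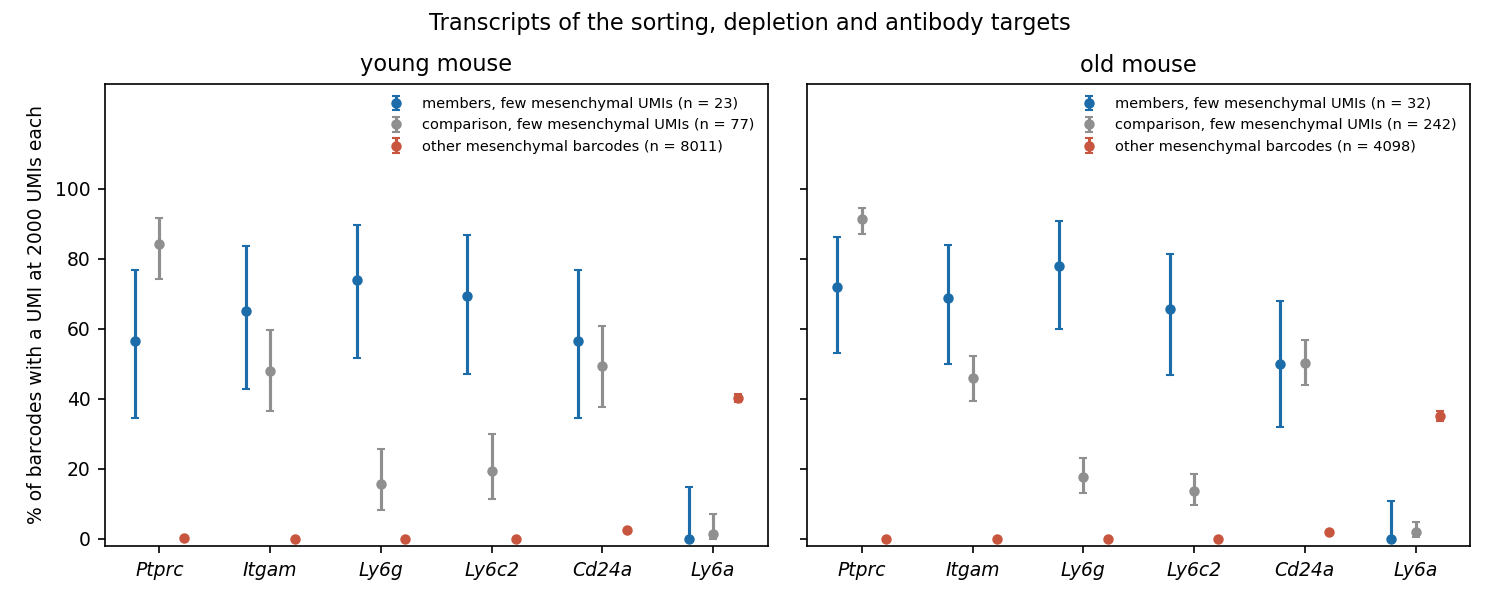
Share of barcodes with at least 1 UMI after thinning to 2000 UMIs (y axis, percent) for Ptprc, Itgam, Ly6g, Ly6c2, Cd24a and Ly6a (x axis), in mesenchymal-low Ngp/Camp/Ltf barcodes (marked as members, 23 young, 32 old), mesenchymal-low comparison barcodes (77 and 242) and stromal barcodes (marked as other mesenchymal, 8011 and 4098), with bars for the 95% Clopper-Pearson interval. Ptprc, Itgam and Ly6g were found in at least 56.5% of the Ngp/Camp/Ltf barcodes plotted and in under 1% of stromal barcodes.

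CD24 was the protein measured in these libraries, and its mRNA, Cd24a, was common in the Ngp/Camp/Ltf barcodes. Cd24a had UMIs in 42 of 47 young and 45 of 57 old barcodes, and after thinning in 59.5% and 54.5%, against 42.3% and 47.8% of comparison barcodes and 2.45% and 1.88% of stromal barcodes. Between the mesenchymal-low barcodes the thinned shares were 56.5% against 49.4% in the young and 50% against 50.4% in the old mouse. For the antibody itself, the median was 103 UMIs per barcode in the young (17 to 7576) and 95 in the old (39 to 3800), against 75.5 and 91 in the comparison and 85 and 88 in the stromal barcodes. Above the threshold of each library, set by Otsu's method at 312.8 and 396.6 UMIs, lay 5 of 47 young (10.6%, 3.55 to 23.1) and 5 of 57 old barcodes (8.77%, 2.91 to 19.3). Of the comparison barcodes 7.29% and 8.06% lay above it, and of the stromal barcodes 8.77% and 5.50%, within the intervals of the Ngp/Camp/Ltf barcodes. Taken per 1000 RNA UMIs, the antibody gave other shares, with 14.9% (6.20 to 28.3) of the young and 29.8% (18.4 to 43.4) of the old Ngp/Camp/Ltf barcodes above the threshold, against 24.5% and 51.3% of the comparison and 11.8% and 13.8% of the stromal barcodes. Of the mesenchymal-low Ngp/Camp/Ltf barcodes 17.9% (6.06 to 36.9) and 12.5% (3.51 to 29.0) lay above it by that measure. Of the mesenchymal-low comparison barcodes 30.1% (22.6 to 38.6) and 39.1% (33.1 to 45.3) did. By the antibody count alone, these shares were 10.7% and 12.5% against 5.88% and 10.3%. The measure per 1000 RNA UMIs divides by depth, which differed between the sets as given above.

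**Figure D5:**
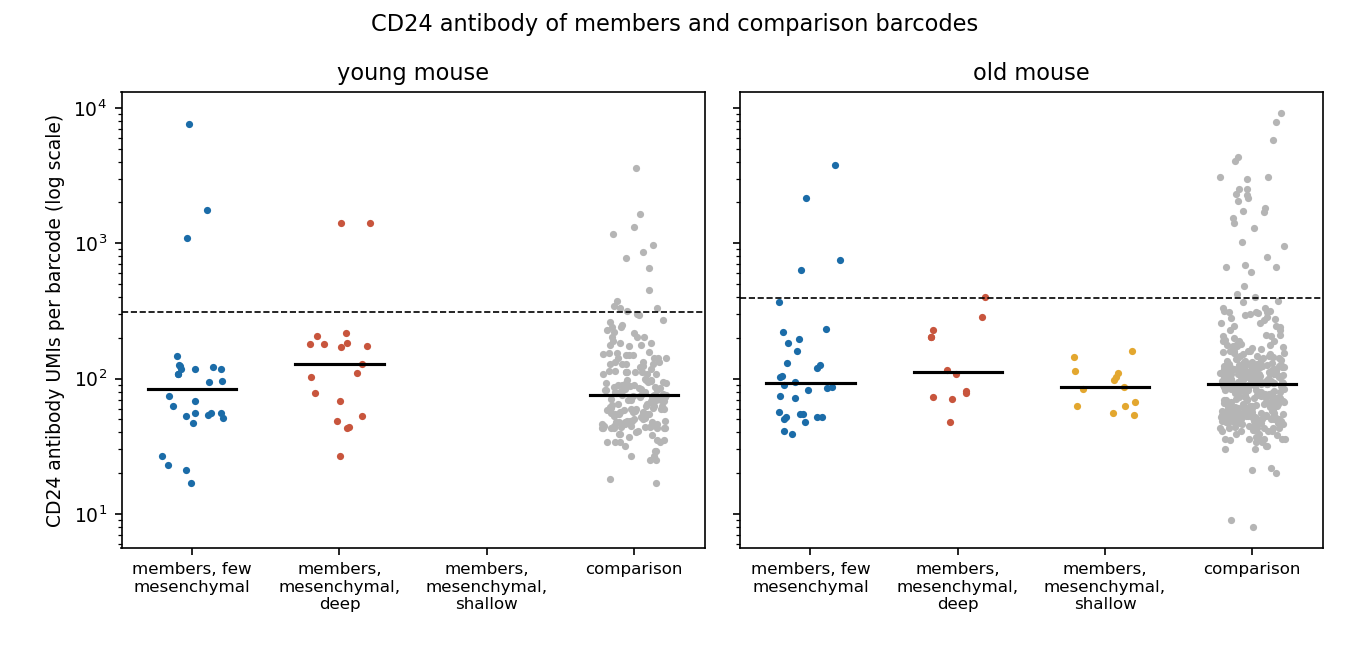
CD24 antibody UMIs per barcode (y axis, log scale) in the mesenchymal-low, deep and shallow kinds of Ngp/Camp/Ltf barcodes (marked as members) and in the comparison barcodes (x axis), with 1 panel per mouse, 1 point per barcode and a line at each median, leaving out comparison barcodes of 0 antibody UMIs. The dashed line is the threshold of the library (312.8 young, 396.6 old): 5 Ngp/Camp/Ltf barcodes per mouse lie above it.

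The antibody was not used by the rule, and RNA was tested across it. The Ngp/Camp/Ltf barcodes of each mouse were divided at the median antibody count (23 above and 24 at or below 103 in the young, 28 and 29 at 95 in the old), and the UMIs of each group were summed. The groups also differed in depth, with medians of 9720 RNA UMIs in the upper and 5108.5 in the lower young group and 10779 and 10290 in the old, and 11 and 8 young and 13 and 12 old barcodes were mesenchymal-positive. Both barcodes with outlying RNA described below were in the upper groups. The part of these differences in the calls was not tested. Of 3106 genes tested with edgeR, 2 were higher in the upper group at an adjusted p below 0.05 (0.0644%) and 0 were lower. An unadjusted edgeR p below 0.05 was found for 130 genes, which is 4.19% of those tested. DESeq2 called 0. Cd24a was not called, at 354 against 470 CPM in the young and 387 against 397 CPM in the old mouse (log2 change -0.18, SE 0.253, edgeR adjusted p = 0.978). The called genes were Stfa3 (log2 change 8.22, SE 0.896, edgeR adjusted p = 0.0389), with 23 against 0 and 54 against 0 UMIs, and Cstdc5 (log2 change 3.98, SE 0.485, edgeR adjusted p = 0.0389), with 66 against 0 and 298 against 24 UMIs. Both encode stefin A cysteine protease inhibitors of a family of near-identical copies, so reads may be split among them. With 0 UMIs in both lower groups, the counts set no upper limit to the log2 change of Stfa3, which its SE does not show. The Stfa3 UMIs came from 1 young and 4 old barcodes and the Cstdc5 UMIs from 3 and 4, with 80.3% and 88.2% of the Cstdc5 UMIs in a single barcode of each mouse. Each sum came from 1 mouse, and the fit had 1 residual degree of freedom.

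The highest antibody count of each mouse belonged to a barcode that stood apart in its RNA. The young one, with 7576 antibody UMIs, held 23547 RNA UMIs at 38.1 gate UMIs per 1000, and 106 of the 136 UMIs of 20 cell-cycle genes found in the young Ngp/Camp/Ltf barcodes. It also held 75 UMIs of B lineage genes and 36 of the immunoglobulin gene Igkc. Without it, the cell-cycle genes in the young Ngp/Camp/Ltf barcodes were at 84.4 CPM in place of 359, against 125 CPM in the comparison barcodes. The old one, with 3800 antibody UMIs, held 1393 erythroid UMIs, 165 per 1000, and was a predicted doublet. In the old mouse the cell-cycle genes were at 119 CPM in the Ngp/Camp/Ltf and 401 CPM in the comparison barcodes.

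The RNA of old and young Ngp/Camp/Ltf barcodes was compared as a description of 2 animals. Of 2294 genes, 1.74% were past a log2 ratio of 1 higher in the old and 4.66% lower, with a median of -0.12. Of 9 specific granule genes 0 were higher and 1, Olfm4, was lower, and Cebpe was at 129 CPM in the young and 126 CPM in the old. Most of the extreme genes rested on few barcodes. The interferon-induced chemokine genes Cxcl9 (142 UMIs in 6 old barcodes, 89.4% in 1 of them, and 0 in the young) and Cxcl10 (66 UMIs in 1 old barcode) had no UMI in the old mesenchymal-low barcodes. Of the 10 highest genes Ubb, a polyubiquitin gene, was the most evenly spread, at 768 CPM in 43 young and 1700 CPM in 55 old barcodes (log2 ratio 1.15, 0.96 to 1.34). Among the 10 lowest, all 49 young UMIs of the histone gene Hist1h2ae and 87.0% of those of Stmn1 were in 1 barcode each. Spp1, which encodes osteopontin, was at 1584 CPM in 41 young and 392 CPM in 37 old barcodes. Gm8797 had 49 UMIs in 24 young and 9 UMIs in 9 old barcodes, and AY036118 at 810 CPM in 33 and 119 CPM in 40.

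Between the mesenchymal-low barcodes of the ages, 3.96% of 1011 genes were higher and 9.79% lower in the old mouse. Among the higher genes, the calcium-binding protein gene S100a6 was at 4298 CPM in the young and 9264 CPM in the old. Mcl1, which delays neutrophil death, was at 864 and 1736 CPM, and Cyp4f18, an enzyme that inactivates leukotriene B4, at 30.2 and 142 CPM. These values include both barcodes with outlying RNA. The young sum held 165436 RNA UMIs, so the young Cyp4f18 value rests on few UMIs. Of 76 ribosomal protein genes, 44 were lower and 0 higher in the old mouse, with a median log2 ratio of -1.07. This rested on the young barcode with cell-cycle RNA: without it and the old barcode with erythroid RNA, 0 of 69 were lower and the median was -0.26, and 27 genes of 929 were higher and 32 lower in place of 40 and 99.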

How the data were processed

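UMI counts of 32285 genes and of the CD24 antibody were deposited by the authors per barcode as raw counts, not normalized. Per the file headers they were made with Cell Ranger 6.1.1, whereas the published methods give an older version, and per the labels the genome was mm10. Barcodes of at least 200 genes and at most 20% mitochondrial UMIs were kept. Sums over barcodes were scaled to CPM, 5 CPM were added for log2 ratios, and genes with at least 50 UMIs over the sets and mice compared were used, leaving out the 8 genes that chose the barcodes. Scrublet (scanpy 1.11.5) predicted doublets with seed 1, shares were compared after thinning to 2000 UMIs, and Otsu's threshold was taken on log(1 + antibody count). Intervals (95%) are Clopper-Pearson for shares, exact Poisson for CPM and conditional binomial for ratios. Antibody groups were tested on 4 UMI sums with edgeR 4.0.16 (TMM, filterByExpr, quasi-likelihood F test, mouse as block, Benjamini-Hochberg adjustment). The SE given with an edgeR log2 change was back-calculated, as its absolute value divided by the square root of the F statistic. On simulated data (3027 genes, 195 of 200 genes with a log2 change of 2 tested) the edgeR fit recovered 67.7% with 0 false calls. The simulation used 1 common dispersion (0.0345), no difference between the mice and no UMIs concentrated in single barcodes. It therefore does not bear on calls that rest on few barcodes. Alternatives used DESeq2 1.42.0, RLE factors and the settings in the closing section. R was 4.3.3 and Python 3.11.15, with NumPy 2.4.6 and SciPy 1.17.1.

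The barcodes and the 23 gene lists were chosen with earlier results of these data known. The sequence table is RefSeq's for GRCm38.p6, and all 3 gate genes matched it. Genes named were those of the lists, the 10 highest and 10 lowest outside them by the smaller log2 ratio of the mice, the 10 highest and lowest between ages by the interval bound nearest to 0, and those called between antibody groups with Cd24a. A comparison of barcodes entering through Elane, Mpo and Prtn3 was planned and could not be made, since there were 0. H2az1, listed among the chromatin genes, was not in the matrix by that name.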

Additional observations from a re-analysis of the deposited data

Results flagged for a closer look

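Summed gene lists lay on opposite sides of 0 in the mice for 3 lists, comparing Ngp/Camp/Ltf with comparison barcodes, and the difference between the mice was not tested. Mesenchymal genes had a log2 ratio of -0.64 for the young and 0.2 for the old mouse. The 10 S phase genes were at 1.15 and -1.42, and the 10 G2 and M phase genes at 2.38 and -2. Of the cell-cycle UMIs of the young Ngp/Camp/Ltf barcodes, 77.9% were in 1 barcode, and of those of the old comparison barcodes 26.9% were in 1. Among single genes, 21 passed a log2 ratio of 1 in opposite directions, including Pclaf (4.16 and -1.21), Top2a (2.24 and -1.04), Stfa2 (3.85 and -2.99), Cxcl9 (-1.58 and 3.07) and Cxcl3 (-2.64 and 1.22).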

How the results depend on the processing

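Of 88 alternatives over the results above, 68 left the value on the same side and, other than for Cd24a, close to the reported one, 19 moved it and 1 reversed it. The 68 include all alternatives on barcodes entering through Elane, Mpo and Prtn3, whose count of 0 could not change. No kept barcode passed 1.04 (young) or 1.52 (old) UMIs of these genes per 1000, below every threshold tried. Those alternatives therefore say nothing about stability. For Cd24a only the sign and, where tested, the call were compared. The share of Ngp/Camp/Ltf barcodes in the old mouse was 0.642% at a threshold of 10 per 1000 and 1.64% at 3 per 1000. The summed log2 ratio of specific granule genes in the young mouse was 1.65 at a threshold of 10 per 1000, 1.69 without predicted doublets, 1.65 with comparison barcodes at 2%, 2.05 without mesenchymal-positive barcodes (an alternative chosen after seeing the data) and 1.85 as a mean over barcodes, and in the old mouse it was 1.96 without predicted doublets and 1.94 with comparison barcodes at 2%. With the antibody taken per 1000 RNA UMIs, 29.8% of the old Ngp/Camp/Ltf barcodes lay above the threshold. Between ages, 18 genes were higher and 17 lower after thinning to 2000 UMIs, and 135 and 442 with a minimum of 20 UMIs. These settings change depth or the number of genes used.

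The 2 genes of 3106 called between antibody groups became 0 of 13150 with DESeq2 (12 at an unadjusted p below 0.05, 0.0913%). Without a filter on low counts they became 30 of 13150 (21 higher, 9 lower). With groups by antibody per 1000 RNA UMIs they became 80 of 2606 (28 higher, 52 lower). In mesenchymal-low barcodes they became 10 of 1421 (8 higher, 2 lower). The cause was not tested. The replicate block was the mouse, which pairs the sums of the same animal. Without the block, edgeR called 0 of 3106 genes, with 82 (2.64%) at an unadjusted p below 0.05. RLE factors and leaving out predicted doublets gave 2 each. Grouped by antibody per 1000 RNA UMIs, Cd24a had a log2 change of 0.30 in place of -0.18. In each mouse alone it ranged from -0.40 to -0.04, with no test. With 1 mouse per age and 47 and 57 barcodes, some genes of few UMIs rest on single barcodes.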
